A study of Mus musculus with 6 samples.

Results

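The large histone gene cluster of mouse chromosome 13 was examined in maps from in-situ Hi-C, a method that counts how often a pair of DNA stretches is joined by ligation in crosslinked nuclei. Its members were the histone genes whose start, the lower coordinate in a RefSeq table of build GRCm38.p6 (mm10), lies from 21600 to 23700 kb. They were 44 of the 49997 genes of that table: 4 H1, 12 H2a, 13 H2b, 6 H3 and 9 H4 genes. One of them, H4bc24, was matched by its older symbol Hist1h2br, and H2ac14 is annotated as a pseudogene. The contact files resolve 50 kb bins, so the 44 genes were read at the 8 bins that hold their starts.

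The cells were mouse embryonic stem (ES) cells of strain 129, given as genotype wild type (WT) or as GFP-CTCF-Del8, with 3 libraries of each. Del8 denotes CTCF without its zinc finger 8; CTCF is a DNA-binding protein that works with cohesin at the borders of chromatin domains. The series' design speaks of ES cells that express GFP-CTCF or the mutant, so the labels leave it unsettled whether the WT libraries carry the GFP tag. The number of clones behind each line, and the promoter that drives the mutant protein, were not given in the sources used here. Contact counts hold no RNA, so the cell type could not be checked against marker genes.

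Replication-dependent histone genes encode the core histones H2A, H2B, H3 and H4 and the linker histone H1, and are transcribed mainly while DNA is copied. Their mRNAs end in a stem-loop bound by SLBP and carry no poly(A) tail. The genes lie in clusters, and in the nucleus these clusters are found at histone locus bodies, where NPAT, FLASH (Casp8ap2) and mRNA-processing factors collect.

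Starts more than 150 kb apart split the members into 3 sub-clusters. The first (chr13:21715711-21837530) held 19 genes in 3 bins: 6 H2a, 6 H2b, 2 H3 and 4 H4 genes and the linker histone gene H1f5. The second (chr13:22035122-22043658), 197.6 kb further on, held 5 genes in 1 bin: H2ac12, H2bc12, H4c9, H2ac11 and H2bc11. The third (chr13:23531044-23698458) began 1487.4 kb later and held 20 genes in 4 bins: 4 H2a, 5 H2b, 4 H3 and 4 H4 genes and the linker histone genes H1f3, H1f4 and H1f6, the last of which encodes the testis form. The limit at 23700 kb cuts through the cluster: H4c3 (start 23698084) was the last member, and another 12 histone genes, from H1f2 (start 23738807) to H2ac1, lay between 23700 and 24200 kb. Between the sub-clusters lay 32 bins without a histone start, with 75 Vmn1r entries (vomeronasal pheromone receptor genes) and 57 tRNA genes.

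Promoter windows from RefSeq (build GRCm38.p6), 250 bases before to 50 after the transcription start, were found for 41 of the 44 members, 42 windows in all. From the last bin of the first sub-cluster, which had almost no contacts, 4 of 6 windows are shown first because each is a near copy of another. The bin's other windows, of H2ac23 and H2ac24, were at most 78.7% and 60.7% identical to any member of their family. H4c17 lies on the + strand at chr13:21811496-21811795 and H4c18 on the - strand at chr13:21832148-21832447. Capitals mark the letters in which these windows differ (99% identity).
H4c17: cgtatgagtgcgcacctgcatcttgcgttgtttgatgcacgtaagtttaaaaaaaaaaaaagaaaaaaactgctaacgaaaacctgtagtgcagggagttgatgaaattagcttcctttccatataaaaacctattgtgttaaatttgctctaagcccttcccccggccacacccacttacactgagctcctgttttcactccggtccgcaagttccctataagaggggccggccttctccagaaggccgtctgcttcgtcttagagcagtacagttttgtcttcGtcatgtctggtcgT
H4c18: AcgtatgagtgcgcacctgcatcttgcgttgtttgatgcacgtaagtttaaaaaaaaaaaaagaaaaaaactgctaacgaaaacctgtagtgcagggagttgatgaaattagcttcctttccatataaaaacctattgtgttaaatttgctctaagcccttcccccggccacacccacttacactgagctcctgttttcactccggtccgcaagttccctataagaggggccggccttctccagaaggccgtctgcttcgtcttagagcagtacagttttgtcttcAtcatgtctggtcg
The windows of H2bc23 (- strand, chr13:21810150-21810449) and H4bc24 (+ strand, chr13:21833493-21833792) were identical in all 300 bases.
H2bc23 and H4bc24: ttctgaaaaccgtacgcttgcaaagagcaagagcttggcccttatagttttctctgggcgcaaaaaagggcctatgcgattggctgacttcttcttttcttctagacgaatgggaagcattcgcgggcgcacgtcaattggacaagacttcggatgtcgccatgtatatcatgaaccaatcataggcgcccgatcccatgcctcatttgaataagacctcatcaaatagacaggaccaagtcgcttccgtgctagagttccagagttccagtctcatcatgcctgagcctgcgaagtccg

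The next windows belong to the bins with the strongest contact between sub-clusters. H2bc12 (+ strand, chr13:22035571-22035870) and H4c9 (- strand, chr13:22041313-22041612) are in the second sub-cluster, and H2bc9 (- strand, chr13:23543395-23543694) is in the first bin of the third. Capitals mark ATTTGCAT (the octamer bound by OCT1, Pou2f1), CCAAT and TATAAA on either strand.
H2bc12: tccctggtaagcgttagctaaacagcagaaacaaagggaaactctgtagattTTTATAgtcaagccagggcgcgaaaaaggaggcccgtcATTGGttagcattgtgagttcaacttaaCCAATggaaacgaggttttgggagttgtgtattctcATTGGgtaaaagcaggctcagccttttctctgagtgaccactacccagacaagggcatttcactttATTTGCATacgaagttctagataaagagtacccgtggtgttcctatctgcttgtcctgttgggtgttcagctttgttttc
H4c9: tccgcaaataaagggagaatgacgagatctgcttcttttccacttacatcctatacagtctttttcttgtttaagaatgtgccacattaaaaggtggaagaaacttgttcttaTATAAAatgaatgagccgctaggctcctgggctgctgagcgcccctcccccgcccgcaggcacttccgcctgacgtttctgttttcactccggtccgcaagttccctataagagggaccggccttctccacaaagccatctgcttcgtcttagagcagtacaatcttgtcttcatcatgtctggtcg
H2bc9: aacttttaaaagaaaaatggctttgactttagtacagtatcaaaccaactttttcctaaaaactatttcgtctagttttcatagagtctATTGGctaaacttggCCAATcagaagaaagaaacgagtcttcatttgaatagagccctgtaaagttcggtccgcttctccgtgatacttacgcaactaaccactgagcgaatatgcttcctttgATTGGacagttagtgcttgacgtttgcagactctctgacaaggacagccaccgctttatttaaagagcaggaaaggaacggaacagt
The share of windows with CCAAT or ATTTGCAT was uneven across the histone families. CCAAT was in all 4 H1, 11 H2a, 13 H2b and 5 H3 windows but in 2 of 9 H4 windows, against 37.4% of 32851 RefSeq promoter windows of the same length. ATTTGCAT was in 4 of 13 H2b and 3 of 11 H2a windows and in none of the H1, H3 and H4 windows, against 1.74% of all windows. TATAAA was in 24 of 42, with 5 of 13 H2b to 7 of 9 H4 windows as the lowest and highest family, against 13.6% of all windows. Differences between families were not tested. The core of the CTCF motif, searched as CCA, AG and GGC with 2 free bases between each, was in 0 of 42 windows and in 2.43% of all windows, and the MboI site GATC, at which the chromatin was cut, was in 14 of 42 (33.3%) and in 47.97% of all. No overlap between the motifs was removed. In 9 places an H2a and an H2b gene stood head to head with windows that shared 233 to 279 bases, so these genes cannot be told apart by promoter or by bin.

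Depth and the likeness of the libraries bear on what follows. The libraries held 16540408, 16988860 and 28137431 contacts between bins of the same chromosome for WT replicates 1 to 3, and the Del8 replicates held 48712917, 34546742 and 27971797. In the coverage of usable bins, WT replicate 3 lay nearer to the Del8 libraries (chi-square per degree of freedom 2.52 to 2.89, where counting noise alone gives 1) than to WT replicates 1 and 2 (5.77 and 6.26). It also had the largest share of contacts 2 Mb or farther, 34.7% against 28.3% to 30.0% in the other 5 libraries. Several differences are therefore also given against WT replicate 3 alone, where the WT group is a single library that is assumed to vary like the Del8 libraries.

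Coverage split the histone bins. In the last bin of the first sub-cluster (chr13:21800001-21850000), which holds H2bc23, H2ac23, H4c17, H4c18, H2ac24 and H4bc24, contacts with other bins amounted to 2.78%, 3.497% and 4.25% of the library's median bin in WT and 4.36%, 4.18% and 3.23% in Del8, with 0 contacts within the bin in all 6 libraries. All 4 promoter windows with at least 90% identity to another member were in this bin; elsewhere the closest pair, H4c11 and H4c12, reached 87%. The treatment of reads with several matches is not given in the sources used here, and the part of this likeness in the low coverage was not tested. The middle bin of the first sub-cluster (chr13:21750001-21800000, 7 genes including H1f5 and H3c11) stood at 15.3% and 15.1% in WT replicates 1 and 2 but at 37.8% in WT replicate 3 and 35.1%, 37.4% and 32.8% in Del8. WT replicates 1 and 2 also had 0 contacts within this bin, where the other 4 libraries had 50 to 127. Neither bin passed the screen for usable bins, so the results below rest on at most 6 of the 8 bins and 31 of the 44 genes, unless a looser screen is named. Insulation scores could be had for the 4 bins of the third sub-cluster only.

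**Figure D1:**
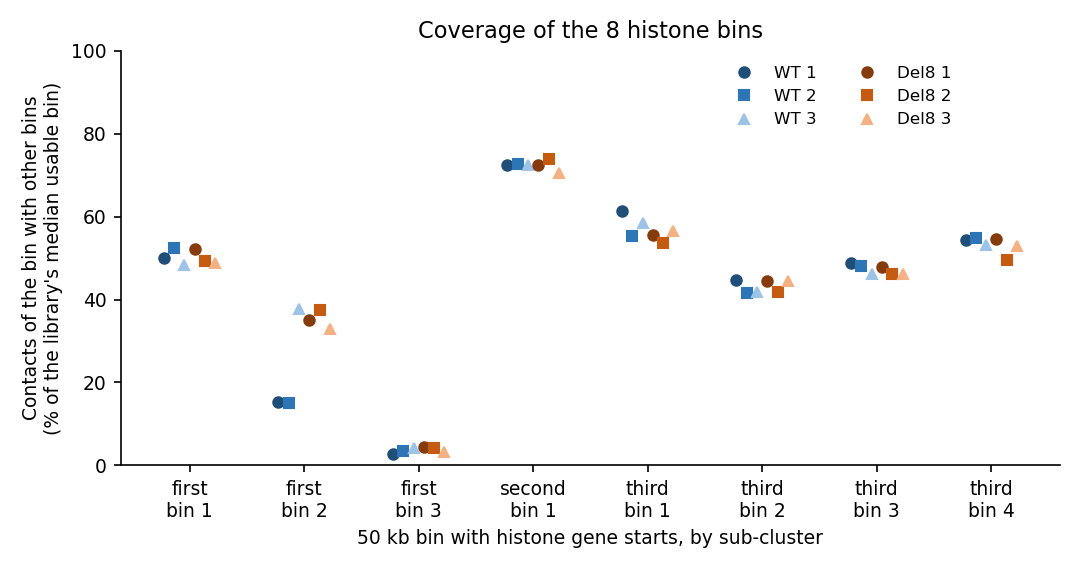
Contacts of each of the 8 histone bins with other bins, as a percent of the library's median usable bin (vertical axis), for each of the 6 libraries (points). Bin 3 of the first sub-cluster stays under 5% in every library, and bin 2 is at about 15% in WT replicates 1 and 2 only.

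The 6 usable histone bins were poorly covered in both groups, and no difference between the groups passed the test. Their totals ran from 41.7% of the median, in the bin of H4c6, H1f3 and 8 other genes (chr13:23550001-23600000) in WT replicate 2, to 73.8%, in the second sub-cluster in Del8 replicate 2. Genome-wide, 0.113% of 28243 bins were higher and 0.00708% lower in Del8 at a limma adjusted p under 0.05. None of the 6 histone bins was called, none had an unadjusted p under 0.05, and their log2 differences lay between -0.08 and 0.03. Of all 28243 bins, 3608 had an unadjusted limma p under 0.05.

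The second and the third sub-cluster, about 1500 kb apart, were in strong contact in all 6 libraries. Contact is given as observed over expected (O/E), the balanced contact over the chromosome 13 average for that distance, so that 1 is the average. Over the 4 bin pairs that join them, O/E was 6.54, 6.24 and 7.37 in WT libraries and 6.66, 7.58 and 7.94 in Del8, from 35, 35, 49, 83, 65 and 59 contacts. All libraries lay above 6 and the groups overlapped (WT 6.72 ± 0.59, Del8 7.39 ± 0.66, SD, n = 3 each; two-sided exact permutation p = 0.2, Benjamini-Hochberg adjusted over 4 values 0.4). With 3 libraries against 3, this test cannot go below 0.10. Without balancing, the group means were 4.426 and 4.496. The difference of 0.68 became 0.0202 against WT replicate 3 alone. With a looser screen, which asked only for 20 or more contacts per library, WT replicates 1 and 2 had an O/E of 0.0042 and 0.0397 and the other 4 of 6.52 to 7.17. That drop was seen with balancing only. Without balancing, the same screen gave the bins at 22000001 and 23500001 an O/E of 18.6 and 18.9 in WT replicates 1 and 2. The other 4 libraries had 12.3 to 14.1.

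Within that block the contact was strongest between the bin of H2ac12, H2bc12, H4c9, H2ac11 and H2bc11 and the bin of H4c8, H2ac10, H3c8, H2bc9 and H3c7 (chr13:22000001-22050000 and chr13:23500001-23550000). It had 22, 23 and 28 contacts in WT and 53, 36 and 34 in Del8. The map summed over the 6 libraries gave an O/E of 14.3 (9.72 without balancing), which ranked 1 of 932 pairs at this distance on chromosome 13 and 3 of 20653 on the 19 autosomes. Per library, the unbalanced O/E was 10.2, 10.4 and 9.39 in WT libraries and 9.45, 9.35 and 10.1 in Del8, with overlapping groups and a log2 change of -0.05 (SE 0.25, edgeR adjusted p 0.963). The second sub-cluster's contact with the next bin, that of H4c6, H1f3 and 8 other genes, had an O/E of 6.96 (rank 4 of 929), and its log2 change was -0.20 (SE 0.41, edgeR adjusted p 0.896). Toward the last 2 bins, which hold H1f4 and then H2ac6, H2bc4, H1f6 and H4c3, O/E dropped to 2.91 and 2.79. Same-family promoter windows of the bins at 22000001 and 23500001 were 44.0% to 50.3% identical, by edit distance over the window length. That is near the low end for same-family windows of different sub-clusters, which ran from 42.7% to 78.7%. The value for unrelated windows was not computed.

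The first and the third sub-cluster were also in contact above the average, on few counts. Only the first bin of the first sub-cluster (H2bc13, H2ac13, H3c10, H2ac14, H2bc14 and H4c11) was usable. Its O/E with the third sub-cluster, 1800 to 1950 kb away, was 5.13, 4.59 and 3.08 in WT libraries and 3.64, 3.88 and 4.60 in Del8, from 9 to 21 contacts per library. All 6 values were above 3, and the groups overlapped (4.27 ± 1.06 and 4.04 ± 0.50, SD, n = 3 each; exact permutation p = 0.9). The difference of -0.23 became 0.95 against WT replicate 3 alone. Without balancing, the 4 bin pairs had a summed O/E of 1.16 to 1.79 in place of 3.11 to 5.43, so the size of this contact rests on the balancing. Both partners had low coverage: about 50% of the median in the first sub-cluster's bin and 41.7% to 61.2% in the third's bins. The part of each was not tested.

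The first and the second sub-cluster, 300 kb apart by their usable bins, were in contact near the average. Their O/E was 0.846, 1.20 and 1.12 in WT libraries and 0.888, 0.615 and 0.595 in Del8, from 7 to 19 contacts per library, and the summed map ranked the pair 636 of 1089 at its distance. The groups overlapped by 1 library (1.06 ± 0.19 and 0.70 ± 0.16, SD, n = 3 each; exact permutation p = 0.2, adjusted 0.4). Without balancing the group means were 0.531 and 0.345.

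**Figure D2:**
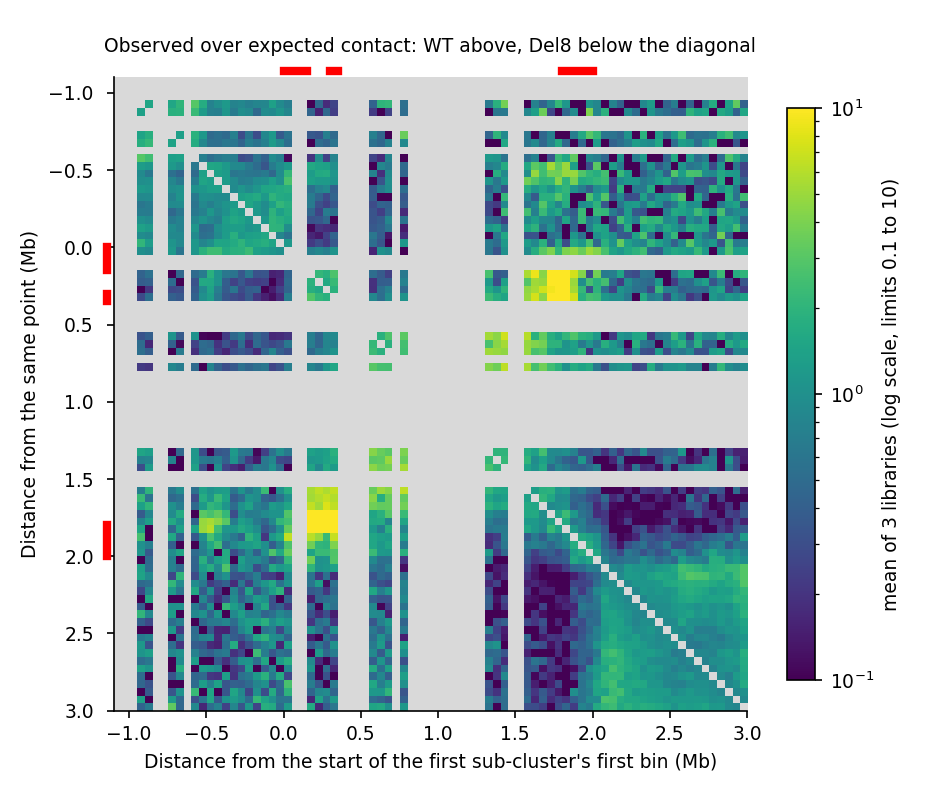
Mean O/E over the 3 libraries of each group for usable 50 kb bins of the region and its flanks, with WT above and Del8 below the diagonal; both axes give the distance in Mb from the first sub-cluster, colour is on a log scale, red bars mark the sub-clusters and grey marks bins that were not usable. The yellow block joins the second sub-cluster and the bins before it with the start of the third and the bins before that, on both sides of the diagonal.

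The strong contact of the second sub-cluster was not limited to histone bins. Its O/E on the summed map was 12.2 with chr13:23400001-23450000, which holds Abt1 (a basal transcription activator) and 17 tRNA genes, and 10.9 with chr13:23450001-23500000, which holds the butyrophilin genes Btn1a1 and Btn2a2 and 5 tRNA genes. With the first of these bins it had 39, 51 and 40 contacts in WT and 79, 43 and 54 in Del8. The WT O/E of 14.7, 17.6 and 10.8 overlapped the Del8 values of 11.4, 8.68 and 13.6 (edgeR on the counts, log2 change -0.38, SE 0.21, adjusted p 0.467). From the third sub-cluster's side, O/E was 6.60, 6.37 and 4.61 with the 3 bins just before the second sub-cluster, which hold 5, 15 and 4 tRNA genes, and 3.23 with chr13:21200001-21250000 in the upstream flank, which holds 7 tRNA genes and no protein-coding start.

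The bins between the sub-clusters were then split by whether they hold a tRNA gene start, a split chosen after these values were seen and given without a test. Of the 15 usable bins, 8 held one. Their median O/E with the second sub-cluster was 5.83 (range 1.89 to 12.2), against 1.32 (0.693 to 1.98) for the 7 bins with none. The 8 usable bins with a Vmn1r start, 1 of which also holds tRNA genes, had a median of 1.32. With the first sub-cluster the medians were 1.45 and 0.435, so both sub-clusters had higher medians at tRNA gene bins. For the first, the tRNA gene bins at 21850001, 21900001 and 21950001 had 0.567, 0.619 and 0.546. The bins with none ranged from 0.194 to 0.692. The first sub-cluster's higher values (1.36 to 3.145) were at the tRNA gene bins just before the third. All 7 bins with no tRNA gene start hold Vmn1r starts, so tRNA genes, Vmn1r genes and position cannot be told apart in this split. With the third sub-cluster the medians were 1.11 and 1.16 with balancing but 0.818 and 0.397 without, so the order turned with the balancing. In the upstream flank, the third sub-cluster's median was 1.85 with the 5 usable bins that hold a tRNA gene start and 0.886 with the 9 that hold none. The histone bins at 22000001 and 23500001 hold 6 and 13 tRNA genes themselves, so histone and tRNA genes cannot be told apart within either bin. The histone bins at 23550001, 23600001 and 23650001 hold no tRNA gene start. Their O/E with the second sub-cluster was 6.96, 2.91 and 2.79, beside 1.89 to 12.2 for the 8 tRNA gene bins with no histone start. This comparison was not tested.

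**Figure D3:**
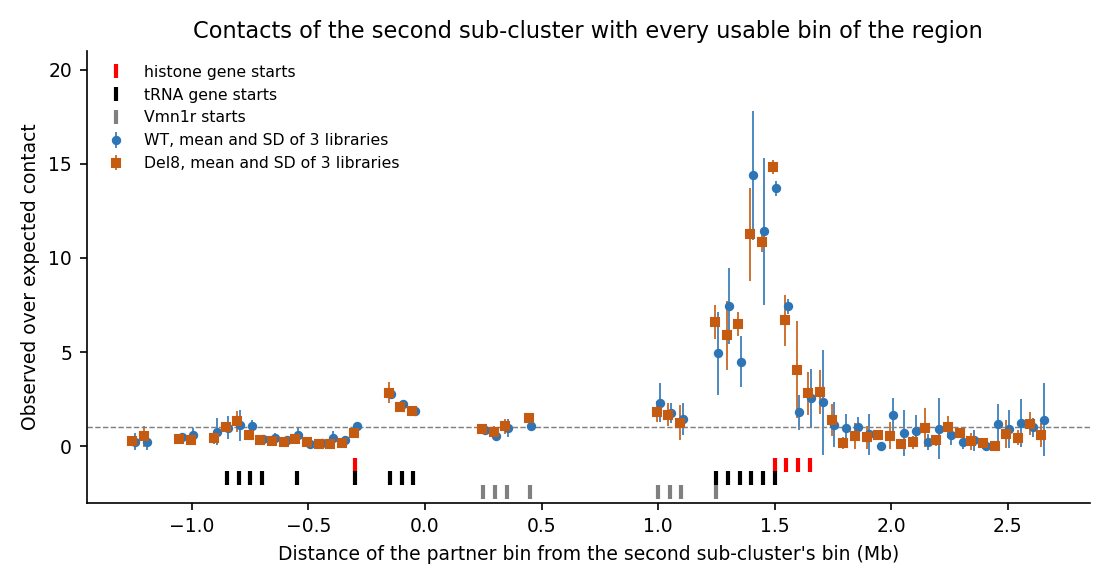
O/E (vertical axis) of the second sub-cluster's bin with every usable bin of the region, by distance in Mb, as mean and SD of 3 libraries in WT (circles) and Del8 (squares, shifted slightly sideways); ticks mark bins with histone, tRNA and Vmn1r starts. Values rise to about 14 near 1.5 Mb in both groups, over bins that hold tRNA genes and the first histone bins of the third sub-cluster.

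Contacts with the bins between and with the flanks differed without overlap in 2 of 9 values, and 3 libraries against 3 cannot take either past a threshold of 0.05. Groups of 3 libraries that do not differ separate fully at a rate of 0.1. No share of such separations over other regions was computed, so the count is not read as a trait of these bins. The first sub-cluster with the bins between had an O/E of 0.775, 0.930 and 0.736 in WT and 0.587, 0.442 and 0.646 in Del8, lower in all 3 Del8 libraries (0.81 ± 0.10 and 0.56 ± 0.11, SD, n = 3 each; exact permutation p = 0.1, adjusted over 9 values 0.45). The third sub-cluster with the upstream flank had 1.33, 1.24 and 1.31 in WT and 1.14, 1.23 and 1.13 in Del8 (1.29 ± 0.05 and 1.17 ± 0.06, SD, n = 3 each; exact permutation p = 0.1, adjusted 0.45). The smallest value of one group lay just beside the largest of the other, 1.239 in WT and 1.235 in Del8. Of the remaining values, the first sub-cluster with the upstream flank was 1.30 to 1.59 in WT and 1.57 to 1.78 in Del8, and with the downstream flank 0.970 to 2.20 and 0.776 to 1.18 (a difference of -0.63, and of -1.18 against WT replicate 3 alone). The second sub-cluster with the downstream flank was 0.679 to 1.04 in WT and 0.640 to 0.855 in Del8, and the third with the bins between 1.01 to 1.13 and 0.945 to 1.05. In these 4 the groups overlapped (exact permutation p from 0.2 to 0.4).

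Relative to the average for the distance, the third sub-cluster had less contact with the flank that touches it than with the one far away. Its O/E was 0.505, 0.599 and 0.521 in WT libraries and 0.544, 0.516 and 0.495 in Del8 with the 1 Mb after 23700 kb, where the 12 histone genes just outside the limit also lie. That is below the average in all 6 libraries, whereas its O/E with the 1 Mb before 21600 kb was above 1 in all 6. Without balancing the group means were 0.327 and 0.290 after and 0.831 and 0.711 before, so the order of the flanks held but the upstream value was under 1. The second sub-cluster had an O/E of 2.15, 2.16 and 2.04 in WT and 2.21, 2.06 and 2.19 in Del8 with the bins between. Its values with the upstream flank, 0.338 to 0.564, were below 1 in every library. For the second sub-cluster with both partners, and for the third with the downstream flank, the groups overlapped (exact permutation p from 0.3 to 0.6).

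**Figure D4:**
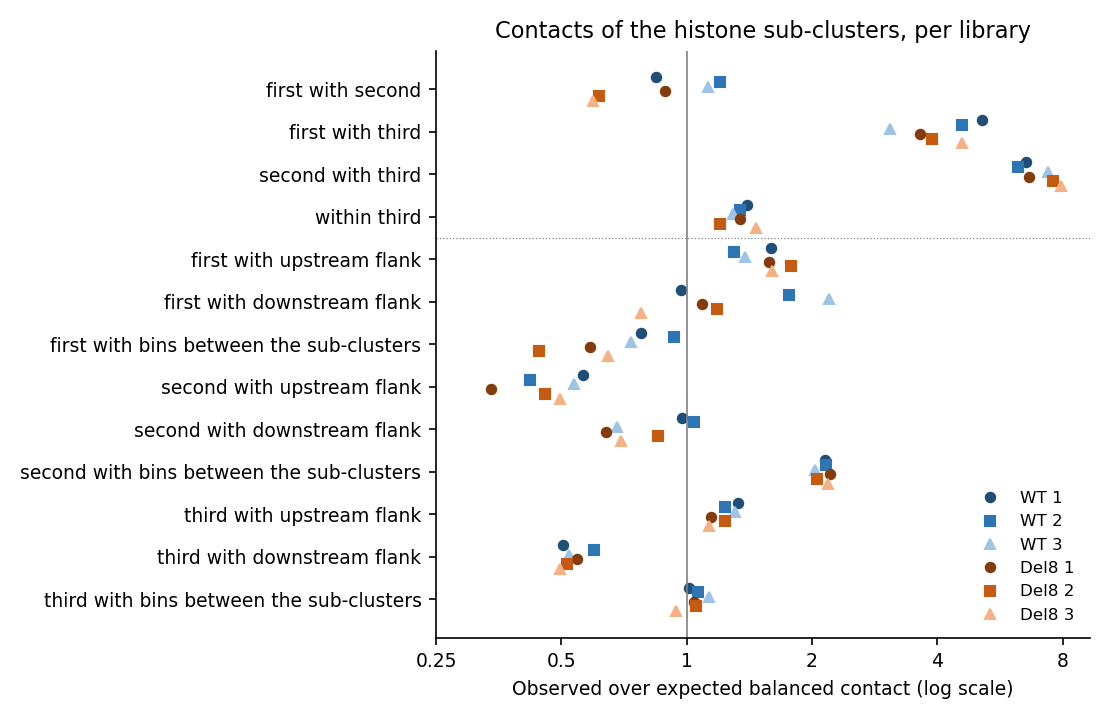
O/E (log scale) of each sub-cluster with the others (above the dotted line) and with the flanks and the bins between (below it), 1 point per library. The 6 values of the second with the third sub-cluster lie between 6.24 and 7.94, and those of the third sub-cluster with the downstream flank between 0.495 and 0.599.

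Few contacts crossed the third sub-cluster in any library. The insulation score compares the balanced contact that spans a bin, within 500 kb, with the chromosome's mean on a log2 scale, and is low where few contacts cross. On the summed map its 4 bins scored -1.40, -1.63, -1.53 and -1.56, in the lowest 0.084% to 0.181% of 22650 autosomal bins. The minimum, -1.81, lay 1 bin further on at chr13:23700001-23750000, the bin of H1f2, H3c3 and H2bc3 just outside the limit. Of the 61 boundaries on chromosome 13, local minima with a prominence of at least 0.2, it had the lowest score and the largest prominence (2.61). The first and the second sub-cluster had no score, since too few bins around them were usable.

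The score of 1 of the 4 histone bins was lower in Del8. In the bin of H4c8, H2ac10, H3c8, H2bc9 and H3c7 it was -1.37, -1.36 and -1.15 in WT libraries and -1.49, -1.52 and -1.45 in Del8. All Del8 values lay below all WT values, and WT replicate 3 was the highest. The difference was -0.20 (SE 0.06, n = 3 each, limma adjusted p 0.018), where 27.5% of all 22650 bins were lower and 30.9% higher in Del8 by the same rule and the median difference was 0.01. The call was lost without Del8 replicate 1 (adjusted p 0.053) or Del8 replicate 2 (0.068) and with a 250 kb square (-0.14, 0.179). The size of the difference depended on WT replicate 3: it was -0.13 without this library and -0.34 against it alone, with a limma adjusted p of 0.011 in the first case.

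The next bin, of H4c6, H1f3, H3c6 and 7 other genes, had -1.40, -1.71 and -1.41 in WT and -1.73, -1.79 and -1.62 in Del8. Here WT replicate 2 lay within the Del8 values, and the difference of -0.20 did not pass (SE 0.08, limma adjusted p 0.059). Without WT replicate 2 it did (-0.31, adjusted p 0.002), and against WT replicate 3 alone the difference was -0.30. The bin of H1f4 differed by -0.09 (adjusted p 0.217) and passed without WT replicate 2 (-0.16, adjusted p 0.007), and that of H2ac6, H2bc4, H1f6 and H4c3 differed by -0.02 (adjusted p 0.717). Just outside the limit, the bin of H1f2, H3c3 and H2bc3 differed by -0.09 (adjusted p 0.241) and that of H2ac4, H3c2, H4c2, H4c1, H3c1 and H1f1 by -0.06 (adjusted p 0.417). Squares of adjacent bins overlap, so their scores are not independent.

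**Figure D5:**
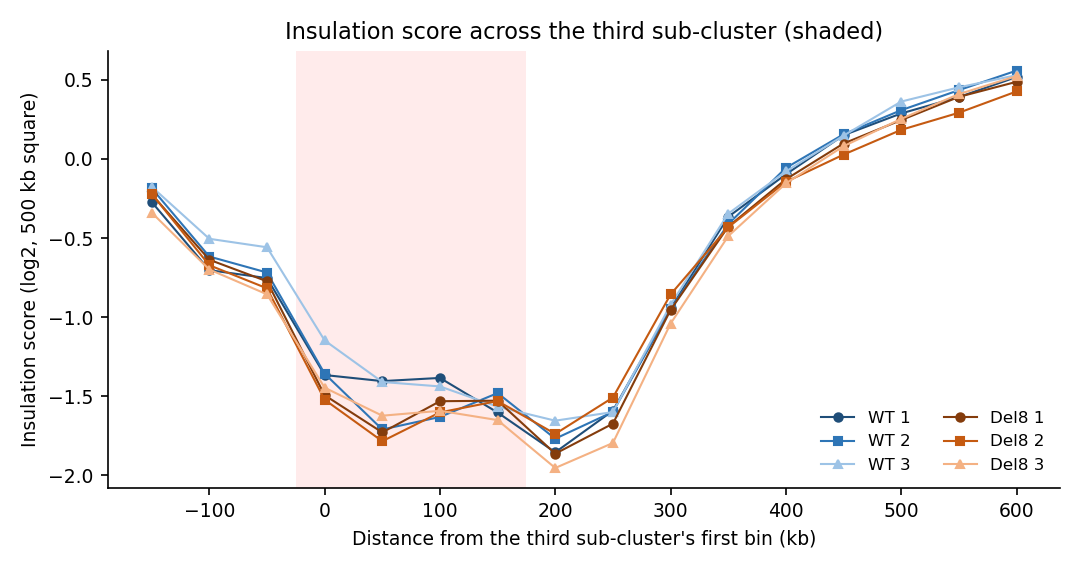
Insulation score (log2, vertical axis) of each library by distance in kb from the third sub-cluster's first bin, with the 4 histone bins shaded. All libraries fall below -1.1 at the first shaded bin and reach their lowest scores within or just after the shaded bins; at the first one the Del8 libraries lie below the WT libraries.

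No other measure of the histone bins passed its test. Of pairs of usable bins up to 2.5 Mb apart with a mean of 5 or more contacts, 0.337% were higher and 0.285% lower in Del8 among 525590 (edgeR quasi-likelihood, adjusted p under 0.05). None of the 11 testable pairs of histone bins was called. None had an unadjusted p under 0.05, and DESeq2 called 0 of the 6 to which it gave an adjusted p. None of the 89 pairs with 1 histone bin was called by edgeR, with 4 at an unadjusted p under 0.05, nor any of 28 by DESeq2. By edgeR, 63265 of all 525590 pairs had an unadjusted p under 0.05. Log2 changes of the 11 pairs ran from -0.57 to 0.98, with standard errors of 0.15 to 0.71.

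Inside the third sub-cluster, O/E was 1.40, 1.35 and 1.29 in WT libraries and 1.35, 1.21 and 1.47 in Del8 (exact permutation p = 0.9), and without balancing the group means were 0.575 and 0.526. It was uneven on the summed map: 1.76 between the bin of H1f4 and that of H2ac6, H2bc4, H1f6 and H4c3, and 0.474 between the latter and the bin of H4c8 and H3c7 150 kb away, which ranked 1098 of 1118.

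The share of contacts 2 Mb or farther was 30.4%, 34.0% and 41.0% in WT libraries and 31.4%, 32.1% and 32.6% in Del8 in the first sub-cluster's bin, with WT replicate 3 the highest. In the second sub-cluster it was 22.0%, 21.9% and 29.5% in WT libraries and from 21.4% to 26.3% in Del8, so the groups overlapped. Genome-wide 7.97% of 28243 bins were lower and 0.166% higher in Del8 by limma, and none of the 6 histone bins was called or had an unadjusted p under 0.05 (adjusted p 0.336 to 0.855). Their differences lay between -3.08 and 2.93 percentage points, beside a median of -2.66 over all bins. Of all 28243 bins, 7426 had an unadjusted limma p under 0.05 on this share. The preference for gene-dense partners, log2 of the O/E with bins 2 Mb or farther that hold at least 2 protein-coding starts over that with bins that hold none, was positive in all 6 libraries in the second sub-cluster (0.64, 0.55 and 0.43 in WT, 0.45, 0.32 and 0.15 in Del8) and in the first bin of the third (0.08 to 0.71). The other 4 histone bins had values on both sides of 0. By limma 0% of 28219 bins were called on this measure, and the lowest adjusted p of a histone bin was 0.858.

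Lists of related genes were read at their own bins by the insulation score, beside the 30.9% higher and 27.5% lower over all bins. Of 5 bins with histone genes of the clusters on chromosomes 3, 6 and 11, 2 rose and none fell: the bin of H2bu2 on chromosome 11 (0.50, limma adjusted p 5.7e-05) and its neighbour with H2aw. The 2 bins of the chromosome 3 cluster differed by -0.06 and -0.19 and did not pass. Of 19 scored bins with genes for histone gene expression and histone mRNA processing, 9 rose and 2 fell, with a median difference of 0.12 beside 0.01 over all bins. The score rose by 0.29 in the bin of Hinfp, an H4 gene activator, and by 0.33 in that of Casp8ap2. It fell by 0.08 in the bin of Slbp. In the bin of Npat, the main activator of the locus body, the score differed by 0.13 without passing (limma adjusted p 0.124). Of 8 scored bins with histone chaperone genes, 6 rose and none fell (median 0.20), among them that of Nasp, a chaperone of H3 and H4 (0.48). Among protein-coding genes of the neighbourhood, 4 of 8 scored bins rose in the upstream flank, 1 of 9 rose and 2 fell in the downstream flank, and 1 of 3 fell between the sub-clusters.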

How the data were processed

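The authors deposited 1 file per library with the raw count of contacts for each pair of 50 kb bins on a chromosome. Nuclei were crosslinked, digested with MboI, filled in with a biotinylated nucleotide, ligated in place and sonicated, per the labels' protocols. Coordinates are of mm10, per the submitters' processing notes. The sources used here name no aligner, no treatment of reads with several matches and no filter on read pairs. Every value on the diagonal was even, so contacts within a bin were divided by 2. Per the labels' design text the 3 libraries of a group are biological replicates; p-values measure the spread between these libraries.

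Groups came from the genotype label and replicate numbers from the titles. Contacts of a bin with other bins were scaled to the library's median usable bin, and a bin was usable if no library fell under 0.5 of the third highest scaled value or under 0.1 of the scale, which left 28243 of 47875 autosomal bins. Each chromosome's map, without its diagonal, was balanced by iterative correction. Expected contact was averaged per chromosome and distance. Insulation scores needed at least 50% of the 500 kb square usable. Scores, coverage and shares per bin were tested with limma 3.58.1 over all usable bins. Counts of pairs were tested with edgeR 4.0.16 (quasi-likelihood, offsets from the expected counts, Benjamini-Hochberg over all pairs), with DESeq2 1.42.0 as an alternative, in R 4.3.3. Tests were checked on simulated data. Values with 1 number per library went into a two-sided exact permutation test (SciPy 1.17.1, Python 3.11.15).

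The members, lists and alternatives were chosen with earlier results of these data known. Every bin with a member start is named, together with pairs of histone bins past the threshold (none) and up to 5 with the highest observed over expected contact. The chromosome X and contacts between chromosomes were not analysed here.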

Additional observations from a re-analysis of the deposited data

How the results depend on the processing

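Depth limits the single pairs: the first sub-cluster rests on 7 to 21 contacts per library in each comparison with another sub-cluster. Same-numbered libraries did not deviate together in their insulation scores (correlations of -0.10, -0.03 and -0.18 for replicates 1 to 3), so the numbers were not treated as pairs. With the replicate block, 2 in place of 1 of the 4 histone bins had a lower insulation score in Del8. So had 5804 of all 22650 bins, and no other histone call changed.

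The number of histone bins with a called insulation score was also 2 with each library centred on its median, where 6077 of all 22650 bins were higher and 7397 lower in Del8. It was 3 from raw contacts (6396 of all 22650 bins higher and 6238 lower). It was 0 with a 250 kb square (5003 of 23405 higher and 4238 lower) and 0 of 8 with the looser screen. It ranged from 0 to 3 when 1 library was left out, with 5894 to 7318 of all 22650 bins higher and 4977 to 6250 lower. The looser screen reversed the sign of all 4 differences in score (Del8 minus WT), to 4.01, 4.01, 4.21 and 4.41, with no call among all bins. Balanced contacts of WT replicates 1 and 2 with that screen are given below, and unbalanced scores were not computed with it. The bin at 23650001, not called, differed by 0.11 with the 250 kb square and by -0.0467 to 0.0204 when 1 library was left out. Without WT replicates 1 and 2, 3 histone bins were called on the share of contacts 2 Mb or farther, where 20794 of all 28243 bins fell. At 100 kb, 1 of 75 pairs with 1 histone bin was called, lower in Del8, where 2.08% of all 253403 pairs were lower. Called pairs higher in Del8 ranged from 0% (looser screen) to 2.49% (100 kb bins) of all pairs, beside 0.337%.

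The pair at 22000001 and 23500001 changed by 0.032 (log2) without WT replicates 1 and 2, 0.00156 with TMM factors and 0.14 with balancing factors in the offsets.

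Differences in O/E between sub-clusters changed sign as follows. With the looser screen they were 0.205 (first with second), 1.43 (first with the third), 0.943 (within the third), -1.15 (first with upstream flank), 0.257 (first with downstream flank), 0.209 and 0.459 (second with the flanks), -1.19 (second with the bins between), 0.615 and 0.360 (the third with the flanks) and 0.533 (the third with the bins between); the second with the third kept its sign but went from 0.675 to 4.46. Without WT replicates 1 and 2 they were 0.953 (first with the third), 0.0486 (within the third) and 0.0516 (second with downstream flank); with the sign kept, the second with the bins between went from 0.0355 to 0.113, the third with the bins between from -0.0553 to -0.120 and the third with the downstream flank from -0.0230 to -0.00217. Single other changes gave 0.0146 (within the third, expected over all autosomes), -0.0134 (second with the bins between, raw contacts) and 0.00423 (the third with downstream flank, 500 kb). When 1 library was left out, the ranges that crossed 0 were -0.822 to 0.202 (first with the third), -0.0689 to 0.0637 (within the third), -0.00318 to 0.0830 (second with the bins between) and -0.0413 to 0.00568 (the third with downstream flank). The exact permutation test cannot go below 0.10 in these settings and was not run without WT replicates 1 and 2, so it says nothing about the stability of these differences. With the looser screen, the balanced O/E of the first with the second sub-cluster was 0.0001 and 0.0007 in WT replicates 1 and 2. It was 0.219 to 0.552 in the other libraries. Without balancing, the bins at 21700001 and 22000001 had 0.735 and 1.11 in WT replicates 1 and 2, beside 0.377 to 0.693 in the others. The cause of these changes was not tested.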
